A study of Mus musculus with 24 samples.

Results

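The 9 genes described here belong to the IL6-STAT3 pathway and the acute phase response. They are Osmr and Il6st, which encode receptor chains for cytokines of the IL6 family, Stat3, the transcription factor that those receptors switch on, Socs3, the inhibitor that shuts them off again, and Saa1, Saa3, Lcn2, Hp and Cp, which encode acute phase proteins. The 9 genes were chosen by name, as core members of the IL6-STAT3 route and of the acute phase response, with earlier results of these data known. Counts of them beside the share of all genes are therefore a description. All 9 were measured, by 23 probe sets. The arrays carried 20380 probe sets that list a single gene symbol, for 12393 genes.

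Cytokines of the IL6 family bind a private receptor chain paired with the shared chain gp130 (Il6st). The paired chains activate JAK kinases, which phosphorylate STAT3; STAT3 then enters the nucleus and turns on genes that include its own inhibitor SOCS3. In the liver the same route drives the acute phase response, in which serum amyloid A, haptoglobin and other plasma proteins are made in quantity, and after nerve injury Schwann cells are known to activate STAT3.

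RNA came from whole sciatic nerves, freed of the perineurial sheath, of mice of 4 genotypes at 3 ages, with 2 arrays for each of the 12 groups and 24 arrays in all. S63del/CHOP null mice carry the S63del allele of P0 and lack CHOP, S63del mice carry that allele with CHOP present, CHOP null mice lack CHOP alone, and WT mice have neither change; each genotype was taken at postnatal day 5 (P5), postnatal day 28 (P28) and 4 months. P0 is the main adhesion protein of peripheral myelin, the S63del form lacks a serine and is known to be held back in the endoplasmic reticulum of Schwann cells, and CHOP is a transcription factor of the unfolded protein response. The mice are a model of the neuropathy Charcot-Marie-Tooth 1B, and the study asked which changes come early, at the height of myelination and late, and which of them depend on CHOP. The labels call the arrays of a group biological replicates; they name no strain, no sex and no number of animals per array. In a whole nerve, fewer cells of a type and less RNA per cell cannot be told apart.

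Ddit3, the gene of CHOP, checked the labels. Its log2 value was 6.60 to 7.37 in the 12 arrays of the S63del/CHOP null and CHOP null genotypes, 9.0 to 9.59 in the 6 arrays of S63del and 7.61 to 9.09 in the 6 WT arrays, so every array labelled as lacking CHOP lay below every array that has it. The replicates of most groups differed by an SD of 0.174 to 0.318 over genes on the log2 scale, but those of CHOP null at P28 differed by 0.555. The interquartile range of the P28 arrays also moved with genotype, at 3.38 to 3.52 with S63del and 2.90 to 3.38 without it. One WT array at 4 months had the largest excess of 3′ over 5′ signal in the control probe sets, 2.12 for Gapdh on the log2 scale, against -0.04 to 1.32 in the other arrays of that age. Among these, S63del had 1.32 and 1.05, S63del/CHOP null 0.35 and 0.55, CHOP null 0.03 and -0.04 and the other WT array 0.08. The excess at 4 months thus differed between genotypes and not in 1 array only. All values below are log2 values of a probe set as deposited, a difference of 1 is a doubling, and a gene with several probe sets is given by the one with the highest mean. Tests are limma contrasts in 1 fit of all 24 arrays, with p-values adjusted by Benjamini-Hochberg over the 12393 genes and a threshold of 0.05; they measure the spread between these arrays only.

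Promoter sequences are shown for Saa1, Osmr and Socs3, the members called higher between S63del and WT at P28. Those of Saa2 and Saa3, relatives of Saa1, are shown too. RefSeq promoter windows on GRCm38.p6, from 250 bases before to 50 bases after the start site, were held for 8 of the 9 genes; Hp is only named. A STAT motif, TTCNNNGAA, which reads the same on both strands, was found in 1 of the 8 genes, Socs3, and in 8.30% of 32851 promoters of the same length. A motif of the C/EBP type, TTGCNNAA on one strand and TTNNGCAA on the other, was found in 4 of the 8 genes, Saa1, Saa3, Lcn2 and Cp, and in 10.8% of all promoters. Cp has 2 windows and only 1 of them holds the match. Genes were counted by any of their windows, whereas the share is of single promoters. C/EBP factors are known to act beside STAT3 in the acute phase response. Capitals mark the matches in the following windows, which are written 5′ to 3′ along the gene's strand. The Socs3 window, at chr11:117969317-117969616 on the minus strand, holds TTCTTAGAA from -154 to -146 relative to the start site.
Socs3: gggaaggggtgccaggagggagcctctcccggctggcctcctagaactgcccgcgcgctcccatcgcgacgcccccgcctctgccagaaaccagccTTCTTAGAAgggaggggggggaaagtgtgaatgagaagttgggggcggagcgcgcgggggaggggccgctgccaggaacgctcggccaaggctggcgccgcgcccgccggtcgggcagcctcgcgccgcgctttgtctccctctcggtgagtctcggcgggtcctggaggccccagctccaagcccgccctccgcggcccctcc
The Osmr window, at chr15:6874264-6874563 on the minus strand, holds neither motif.
Osmr: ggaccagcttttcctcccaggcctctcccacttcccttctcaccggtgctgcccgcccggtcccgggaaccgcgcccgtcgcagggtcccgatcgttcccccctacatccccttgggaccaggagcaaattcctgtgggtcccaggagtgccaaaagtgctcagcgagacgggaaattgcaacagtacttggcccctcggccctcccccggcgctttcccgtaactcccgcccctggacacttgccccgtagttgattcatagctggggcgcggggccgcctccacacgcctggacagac
The Saa1 and Saa2 windows, at chr7:46742931-46743230 on the minus strand and chr7:46751583-46751882 on the plus strand, share the match TTGCACAA and 287 of 301 aligned positions, an identity of 95.3%.
Saa1: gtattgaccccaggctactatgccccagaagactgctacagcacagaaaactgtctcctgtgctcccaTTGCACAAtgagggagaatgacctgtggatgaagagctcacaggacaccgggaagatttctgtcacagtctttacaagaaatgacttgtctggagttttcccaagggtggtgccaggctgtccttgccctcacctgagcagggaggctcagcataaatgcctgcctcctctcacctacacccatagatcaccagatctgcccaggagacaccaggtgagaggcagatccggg
Saa2: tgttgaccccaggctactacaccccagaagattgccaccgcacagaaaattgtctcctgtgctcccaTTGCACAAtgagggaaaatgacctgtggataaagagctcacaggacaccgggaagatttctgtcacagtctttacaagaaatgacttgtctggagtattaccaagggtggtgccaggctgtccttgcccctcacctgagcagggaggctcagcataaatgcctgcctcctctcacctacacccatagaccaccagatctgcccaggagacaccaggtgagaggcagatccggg
The Saa3 window, at chr7:46715627-46715926 on the minus strand, is identical to that of Saa1 at 49.5% of aligned positions and holds TTATGCAA.
Saa3: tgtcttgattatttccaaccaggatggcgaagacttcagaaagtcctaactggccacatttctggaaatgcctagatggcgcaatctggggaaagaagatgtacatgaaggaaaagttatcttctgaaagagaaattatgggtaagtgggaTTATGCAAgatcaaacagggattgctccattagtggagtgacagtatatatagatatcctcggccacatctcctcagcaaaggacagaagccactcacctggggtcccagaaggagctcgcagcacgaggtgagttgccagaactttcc
A match describes the letters in a window and says nothing of binding, and the absence of one says only that these letters are not in these windows.

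Osmr encodes the receptor chain that joins gp130 to bind oncostatin M. At P5 its values were 7.50 and 7.41 in S63del/CHOP null nerves, 7.72 and 7.56 in S63del nerves, 6.67 and 6.69 in CHOP null nerves and 6.66 and 6.75 in WT nerves. All 4 arrays with the S63del allele lay above all 4 without it, by more than the distance between any replicates. S63del nerves were higher than WT nerves by 0.93 ± 0.17 (SE; adjusted p = 0.0057), and Osmr was the 1 member of 9 that passed the test in this comparison, where 2.4% of all genes passed. The S63del/CHOP null nerves were higher by 0.78 ± 0.17 than CHOP null nerves (adjusted p = 0.0264) and by 0.75 ± 0.17 than WT nerves (adjusted p = 0.0312), again as the 1 member called, against 1.78% and 2.07% of all genes in either direction and 0.904% higher in each. The call against WT in S63del nerves was lost without S63del P5 replicate 1 or WT P5 replicate 1. The other calls at P5 were each lost in 6 of 13 alternatives, namely without any of their 4 arrays, with the mean of probe sets and with the replicate block. At P28 the values were 9.09 and 9.01 in S63del/CHOP null nerves, 9.0 and 9.01 in S63del nerves, 7.90 and 7.60 in CHOP null nerves and 8.08 and 8.44 in WT nerves. The groups with S63del again lay above those without it, now at a higher level in every genotype. The difference was 0.75 ± 0.17 between S63del and WT (adjusted p = 0.0216; 1.68-fold), and 1.30 ± 0.17 between S63del/CHOP null and CHOP null (adjusted p = 0.00033; 2.46-fold). The first of these was lost in 6 of 13 alternatives, over which it lay between 0.54 and 0.92: without S63del P28 replicate 1 or 2 or WT P28 replicate 1, with the mean of probe sets, with the replicate block and on the 8 arrays of the age alone. The second was lost with array weights (adjusted p = 0.165). At 4 months the values ran from 9.25 to 9.76 in both S63del genotypes and from 9.23 to 9.74 in CHOP null and WT, and the groups overlapped over most of their range.

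Il6st encodes gp130, the chain that all receptors of the family share. On the probe set used, its values ran from 10.30 to 11.35 over all arrays. Another of its probe sets ran from 6.21 to 9.06, with the lowest value in the WT array at 4 months that had the largest 3′ excess. The part of RNA quality in these values was not tested. At P28 they were 10.88 and 11 in S63del/CHOP null nerves, 10.90 and 10.76 in S63del nerves, 10.70 and 10.30 in CHOP null nerves and 10.57 and 10.84 in WT nerves. One WT array lay inside the range of the S63del genotypes. The S63del/CHOP null nerves exceeded CHOP null nerves by 0.44 ± 0.14 (adjusted p = 0.0408; 1.36-fold), a call kept in 4 of 13 alternatives and lost, among others, without CHOP null P28 replicate 2 or either S63del/CHOP null array. Between S63del and WT the difference at P28 was 0.12. None of the 3 probe sets of Il6st passed the probe-set test when both S63del genotypes were set against both others.

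Stat3 itself showed small differences. At P5 its values were 10.04 and 9.74 in S63del/CHOP null nerves, 10.03 and 9.66 in S63del nerves, 9.63 and 9.62 in CHOP null nerves and 9.61 and 9.60 in WT nerves. At P28 they were 9.88 and 10.13 in S63del/CHOP null nerves, 10.14 and 10.16 in S63del nerves, 9.82 and 9.36 in CHOP null nerves and 9.44 and 9.73 in WT nerves. At both ages the 4 arrays with S63del lay above the other 4, each time narrowly. The nearest values were 9.66 and 9.63 at P5 and 9.88 and 9.82 at P28. No comparison of single genotypes called Stat3 in the test over genes, and the difference between S63del and WT at P28 was 0.57 ± 0.23 (adjusted p = 0.168). In the test over probe sets, 1 of its 3 was higher between S63del/CHOP null and CHOP null at P28, where 15.5% of all probe sets passed. At 4 months the WT replicates were 8.70 and 9.60, a wider gap than between the genotype means at P28, and the lower of them is the array with the largest 3′ excess. The S63del values, 8.77 and 9.09, were the next lowest of that age and came from the arrays with the next largest excess. The part of RNA quality in these values was not tested.

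Socs3 encodes the inhibitor that binds gp130 and its kinases and is a direct target of STAT3. At P5 its values were 8.55 and 8.02 in S63del/CHOP null nerves, 8.08 and 7.83 in S63del nerves, 7.36 and 7.31 in CHOP null nerves and 7.54 and 7.34 in WT nerves. At P28 they were 8.81 and 9.10 in S63del/CHOP null nerves, 8.92 and 8.96 in S63del nerves, 7.70 and 7.19 in CHOP null nerves and 7.43 and 7.83 in WT nerves. The groups with and without S63del did not overlap at either age, and the gap was wider at P28. At that age S63del exceeded WT by 1.31 ± 0.29 (adjusted p = 0.0158; 2.47-fold) and S63del/CHOP null exceeded CHOP null by 1.52 ± 0.29 (adjusted p = 0.0037; 2.86-fold). The call against WT was lost without S63del P28 replicate 1 or 2 or WT P28 replicate 1 and on the 8 arrays of the age alone, with differences of 1.11 to 1.51 over 13 alternatives, and the call against CHOP null was lost with array weights (adjusted p = 0.365). At P5 neither comparison passed, at 0.52 ± 0.29 (adjusted p = 0.60) and 0.95 ± 0.29 (adjusted p = 0.145). At 4 months the values were 8.51 and 9.46 in S63del/CHOP null nerves, 9.41 and 9.43 in S63del nerves, 9.47 and 8.71 in CHOP null nerves and 8.58 and 8.97 in WT nerves, and the replicates of S63del/CHOP null and of CHOP null lay far apart. S63del exceeded WT there without overlap, by 0.64 to 0.74 over the 3 probe sets of Socs3, and none of these passed.

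**Figure D1:**
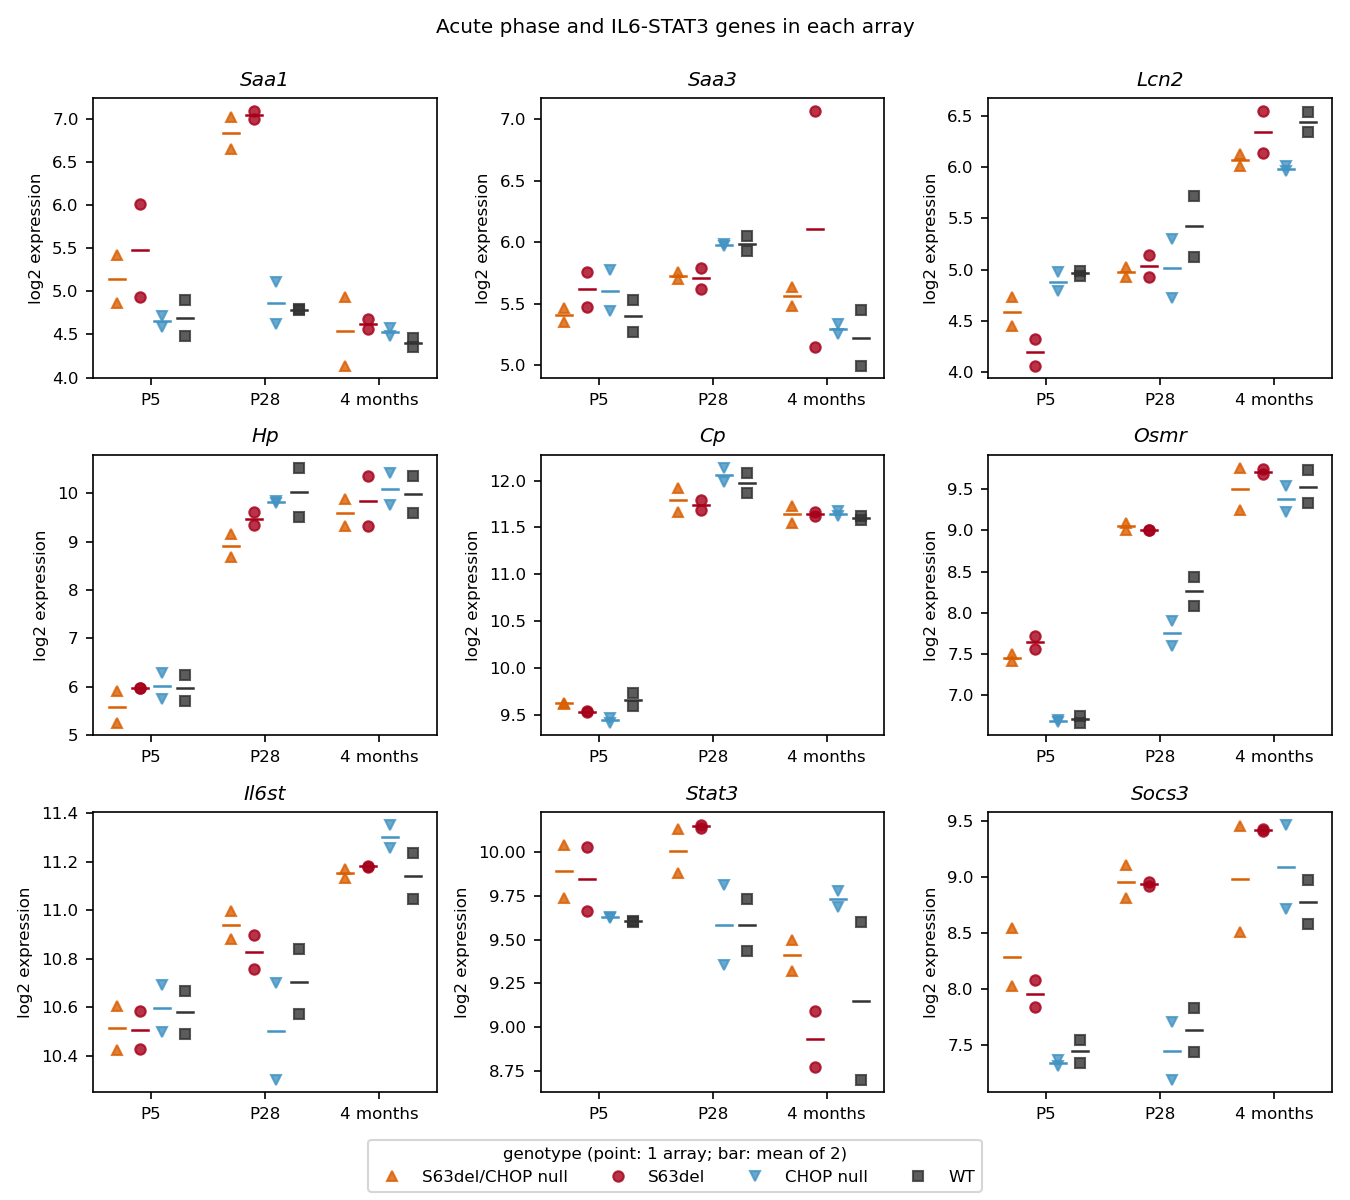
Log2 values of the 9 genes on each of the 24 arrays, 1 panel a gene, with age along the horizontal axis and the genotypes side by side within an age; each point is 1 array. At P28 Saa1, Osmr and Socs3 of both S63del genotypes stand clear of CHOP null and WT, while at 4 months the groups with and without S63del overlap for all 3. S63del and WT alone do not overlap there for Saa1 and Socs3. Hp and Cp differ mainly between P5 and the later ages.

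Saa1 encodes a serum amyloid A, an apolipoprotein that climbs steeply in plasma during inflammation and is secreted mainly by the liver. At P28 it had the largest difference of the 9 genes. Its values at P5 were 5.43 and 4.86 in S63del/CHOP null nerves, 6.01 and 4.94 in S63del nerves, 4.72 and 4.59 in CHOP null nerves and 4.90 and 4.49 in WT nerves. The replicates with S63del were far apart there and 1 of them lay below a WT array. At P28 the values were 7.02 and 6.65 in S63del/CHOP null nerves, 7.09 and 7.0 in S63del nerves, 5.11 and 4.62 in CHOP null nerves and 4.79 and 4.78 in WT nerves, which leaves a gap of more than 1 between the groups with and without S63del. The S63del nerves exceeded WT by 2.26 ± 0.30 (adjusted p = 0.00041), a call kept in 12 of 12 alternatives. The S63del/CHOP null nerves exceeded CHOP null by 1.98 ± 0.30 (adjusted p = 0.00076), kept in 11 of 12 alternatives and lost with array weights. At 4 months the values were 4.14 and 4.94 in S63del/CHOP null nerves, 4.56 and 4.68 in S63del nerves, 4.58 and 4.49 in CHOP null nerves and 4.35 and 4.46 in WT nerves. The CHOP null and WT values at P28, like nearly all values at the other ages, lay well under the array medians of 6.84 to 7.03. No detection call per probe set was used here, so these levels are not shown to be above background and no fold is given for Saa1.

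Saa1 is read by a pair of probe sets, and the copies of the family limit what each one names. The one with the higher mean, used above, carries an accession that RefSeq gives to Saa2, and the other one that it gives to Saa1, so that the level called Saa1 above may hold signal of both genes. At P28 the second probe set had 5.85 and 5.67 in S63del/CHOP null nerves, 6.26 and 5.95 in S63del nerves, 4.28 and 4.75 in CHOP null nerves and 4.23 and 3.93 in WT nerves. The groups with and without S63del did not overlap on it either. Saa2, measured by a probe set of its own, had 6.11 and 5.81 in S63del/CHOP null nerves, 6.31 and 6.09 in S63del nerves, 5.56 and 6.03 in CHOP null nerves and 5.22 and 5.33 in WT nerves at P28. S63del exceeded WT in it by 0.92 ± 0.21 (adjusted p = 0.0179), while 1 CHOP null array fell inside the S63del/CHOP null range.

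Saa3, the family member that macrophages and fat cells make outside the liver, did not follow Saa1. Its P28 values were 5.70 and 5.76 in S63del/CHOP null nerves, 5.62 and 5.79 in S63del nerves, 5.97 and 5.99 in CHOP null nerves and 5.93 and 6.05 in WT nerves. The arrays with S63del were the lower ones, without overlap, and the difference between S63del and WT of -0.28 did not pass the test. At 4 months the S63del replicates were 5.15 and 7.07, against 5.00 and 5.45 in WT, and the difference of 0.89 ± 0.37 (adjusted p = 0.98) rested on the second of them. Without S63del 4 months replicate 1, Saa3 passed the test against WT as the 1 member called; no member passed with both arrays.

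Lcn2 encodes lipocalin 2, which starves bacteria of iron by binding their siderophores and is stored in neutrophil granules. At P5 its values were 4.73 and 4.45 in S63del/CHOP null nerves, 4.07 and 4.33 in S63del nerves, 4.98 and 4.79 in CHOP null nerves and 4.94 and 4.99 in WT nerves. The arrays with S63del were lower without overlap, and S63del lay below WT by -0.77 ± 0.20 (adjusted p = 0.057). The log2 of the summed level of the 9 measured neutrophil markers ran the same way at that age, from 8.24 to 9.22 in both S63del genotypes and from 9.26 to 9.76 in CHOP null and WT. Its part in the Lcn2 difference was not tested. At P28 the values of 4.93 and 5.03 in S63del/CHOP null nerves and 5.14 and 4.93 in S63del nerves overlapped those of 5.30 and 4.73 in CHOP null nerves and 5.13 and 5.72 in WT nerves. At 4 months all arrays lay between 5.96 and 6.55.

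Hp encodes haptoglobin, which captures free hemoglobin. At P28 its values were 8.68 and 9.15 in S63del/CHOP null nerves, 9.33 and 9.61 in S63del nerves, 9.79 and 9.85 in CHOP null nerves and 9.52 and 10.53 in WT nerves. The S63del genotypes lay mostly below the others, with S63del replicate 2 above WT replicate 1. The differences were -0.55 ± 0.39 between S63del and WT (adjusted p = 0.43) and -0.91 ± 0.39 between S63del/CHOP null and CHOP null (adjusted p = 0.104), and neither passed. Cp encodes ceruloplasmin, the copper-carrying oxidase that loads iron onto transferrin. Its P28 values were 11.92 and 11.67 in S63del/CHOP null nerves, 11.79 and 11.69 in S63del nerves, 11.98 and 12.14 in CHOP null nerves and 11.87 and 12.08 in WT nerves, a slight shift downwards with overlap that no comparison of single genotypes called in the test over genes. In the test over probe sets, 1 of its 7 was lower between S63del/CHOP null and CHOP null, where 15.5% of all probe sets passed.

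At P28, 3 of the 9 genes passed between S63del and WT, Saa1, Osmr and Socs3, all higher, where 4.62% of all genes passed and 3.01% were higher. The median log2 difference of the 9 genes was 0.12, beside 0.01 over all genes. Between S63del/CHOP null and CHOP null, 4 passed, the same 3 and Il6st, all higher, where 17.8% of all genes passed and 9.77% were higher, with medians of 0.42 for the 9 genes and -0.02 for all genes. Between S63del/CHOP null and WT 3 passed, Saa1, Osmr and Socs3, all higher, against 4.4% of all genes and 2.7% higher. The calls of Osmr and Socs3 there were kept in 8 and 9 of 13 alternatives, and both were lost without S63del/CHOP null P28 replicate 2 or WT P28 replicate 1. The last comparison shares its S63del/CHOP null arrays with the second and its WT arrays with the first. At 4 months none of the 9 passed between S63del and WT, where 0% of all genes passed with limma and 577 genes had an unadjusted p under 0.05, nor between S63del/CHOP null and CHOP null, where the share was also 0%. When none differs, an unadjusted p under 0.05 is expected for a share of 0.05 of all genes. Such a count alone thus neither shows a change nor excludes one, here and below. The counts given below for CHOP lie on both sides of that share, from 107 in the interaction at P5 to 1244 in CHOP null against WT at P28. The fit shares 1 spread per gene over all ages, and whether that spread suits P5 was not tested. Averaged over the ages, 4 of the 9 passed between S63del and WT, where 6.89% of all genes passed: Saa1 by 1.09 ± 0.17 (adjusted p = 0.00087), Socs3 by 0.82 ± 0.17 (adjusted p = 0.0055), Osmr by 0.62 ± 0.10 (adjusted p = 0.00113) and Lcn2 by -0.42 ± 0.12 (adjusted p = 0.0397). The Lcn2 call was kept in 7 of 19 alternatives and the other 3 in all of theirs, save that Saa1 was not tested when dim genes were left out.

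**Figure D2:**
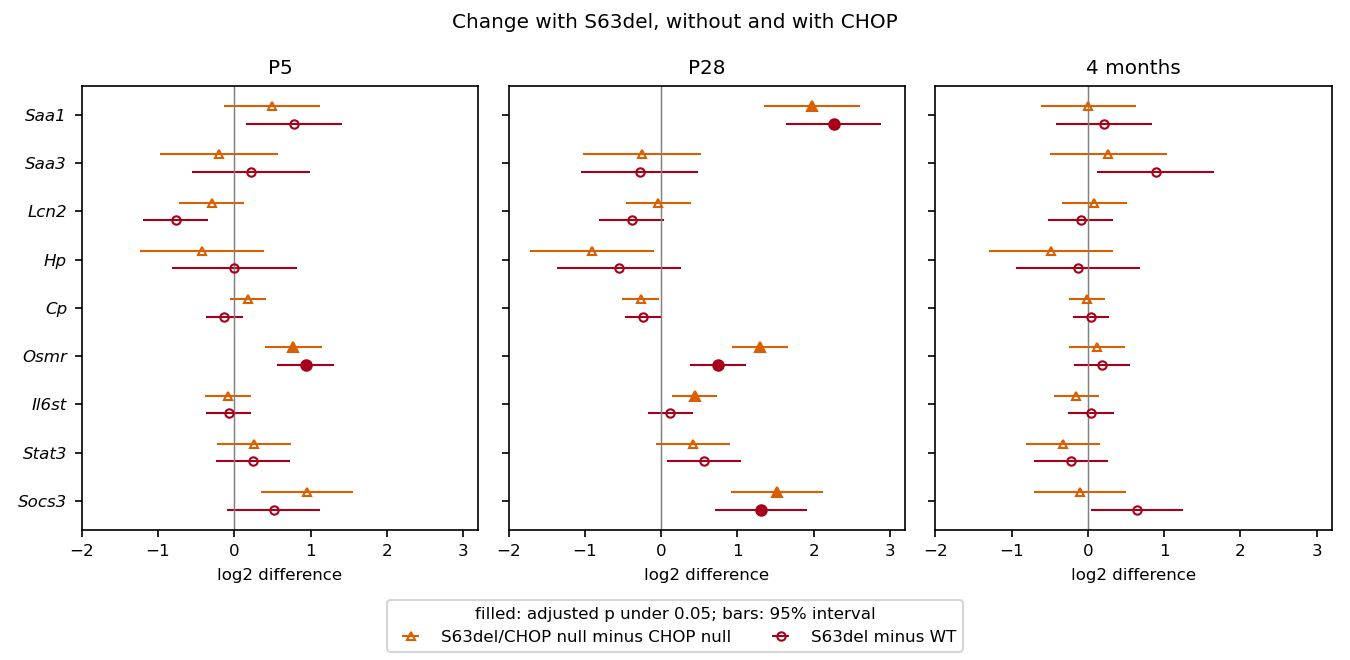
Log2 difference of each of the 9 genes at P5, P28 and 4 months, S63del/CHOP null minus CHOP null and S63del minus WT, with 95% intervals from the limma fit; triangles are S63del/CHOP null minus CHOP null, circles are S63del minus WT, and filled points passed the test. Saa1 reaches 1.98 and 2.26 at P28, and at 4 months the intervals of Saa1, Osmr and Il6st include 0 in both comparisons. Those of Saa3 and Socs3 lie above 0 at 4 months for S63del minus WT, where neither passed the test.

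Removing CHOP was set against S63del alone to ask whether these changes needed it. None of the 9 genes passed between S63del/CHOP null and S63del at P5, P28 or 4 months, where 0.0161%, 0.00807% and 0.00807% of all genes passed with limma and 110, 466 and 274 had an unadjusted p under 0.05. At P28 the difference was -0.21 for Saa1 (95% interval -0.84 to 0.42), 0.04 for Osmr (-0.33 to 0.41) and 0.02 for Socs3 (-0.58 to 0.63). A fall as large as the difference between S63del and WT lies outside each of these intervals, while smaller changes in either direction lie inside. For Stat3 the difference was -0.14 (-0.63 to 0.34) and for Il6st 0.11 (-0.18 to 0.41). The interaction of the 2 alleles called none of the 9 genes at any age, where 0% of all genes passed and 107, 972 and 322 had an unadjusted p under 0.05 at P5, P28 and 4 months.

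Loss of CHOP alone called none of the 9 genes against WT at any age, where 0%, 0% and 0.00807% of all genes passed at P5, P28 and 4 months and 114, 1244 and 733 had an unadjusted p under 0.05. Osmr at P28 had the widest difference of the 9 genes at that age, -0.51 ± 0.17 (adjusted p = 0.338), from values of 7.90 and 7.60 in CHOP null nerves and 8.08 and 8.44 in WT nerves. This comparison depends on 1 array: without CHOP null P28 replicate 1 it rests on replicate 2 alone. That array had the narrowest interquartile range of the P28 arrays, 2.90, and their largest 3′ over 5′ signal for Actb, 1.12. No call is read from it here. At 4 months Stat3 was 9.78 and 9.69 in CHOP null nerves and 8.70 and 9.60 in WT nerves, a difference of 0.58 ± 0.23 (adjusted p = 0.83) that rests on the low WT array.

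The 4 arrays with S63del at each age were also set against the 4 without it, a comparison added after the data were seen. At P5, 3 of the 9 genes passed, Osmr by 0.86 ± 0.12 (adjusted p = 0.000247), Socs3 by 0.73 ± 0.20 (adjusted p = 0.0396) and Lcn2 by -0.53 ± 0.14 (adjusted p = 0.0341), where 5.97% of all genes passed. The Osmr call was kept in 17 of 17 alternatives, that of Socs3 in 7 of 17 and that of Lcn2 in 7 of 16, both lost with quantile normalization, with the replicate block and without most single arrays. At P28, 6 passed, where 28% of all genes passed, 16.1% higher and 11.9% lower: Saa1 by 2.12 ± 0.21 (adjusted p = 6.86e-06), Socs3 by 1.41 ± 0.20 (adjusted p = 0.000198; 2.66-fold), Osmr by 1.02 ± 0.12 (adjusted p = 3.69e-05; 2.03-fold), Stat3 by 0.49 ± 0.16 (adjusted p = 0.0333; 1.41-fold), Il6st by 0.28 ± 0.10 (adjusted p = 0.0448) and Cp by -0.25 ± 0.08 (adjusted p = 0.0289). Only the calls of Saa1, Osmr and Socs3 were kept in every alternative run, and without S63del P28 replicate 2, S63del/CHOP null P28 replicate 2 or CHOP null P28 replicate 2 these 3 were the members left. Quantile normalization, which removes the difference in interquartile range between the P28 arrays, gave 2.51 for Saa1, 0.95 for Osmr and 1.37 for Socs3, all called, and 0.40 for Stat3 (adjusted p = 0.082) and 0.17 for Il6st (adjusted p = 0.15), not called. At 4 months none passed, where 0% of all genes passed and 408 had an unadjusted p under 0.05. Without overlap, 4 arrays against 4, lay 3 members above and 1 below at P5 (22.6% of all genes in either direction), 4 above and 1 below at P28 (20.2%) and none at 4 months (2.13%).

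The probe sets of a gene did not all move together. At P28, with both S63del genotypes against both others and 24.3% of all probe sets called, 2 of 2 probe sets of Saa1 and 3 of 3 of Socs3 were higher. Of Stat3, 2 of 3 were higher and the third, a dim one, had a difference of -0.26 that did not pass. Osmr had 1 of 2 called, the other at 0.49 ± 0.23 (adjusted p = 0.120), and Cp had 3 of 7 lower, with differences of -0.39 to 0.04 over the 7. At P5, 1 probe set each of Osmr and Socs3 was higher and that of Lcn2 lower, where 4.94% passed, and at 4 months none of the 23 passed, where 0% did. On the dimmer probe set of Saa1, the difference between both S63del genotypes and both others also changed with age. It changed by 1.07 from P5 to P28 (adjusted p = 0.0261) and by -1.45 from P28 to 4 months (adjusted p = 0.00478), where 2.64% and 2.48% of all probe sets passed.

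**Figure D3:**
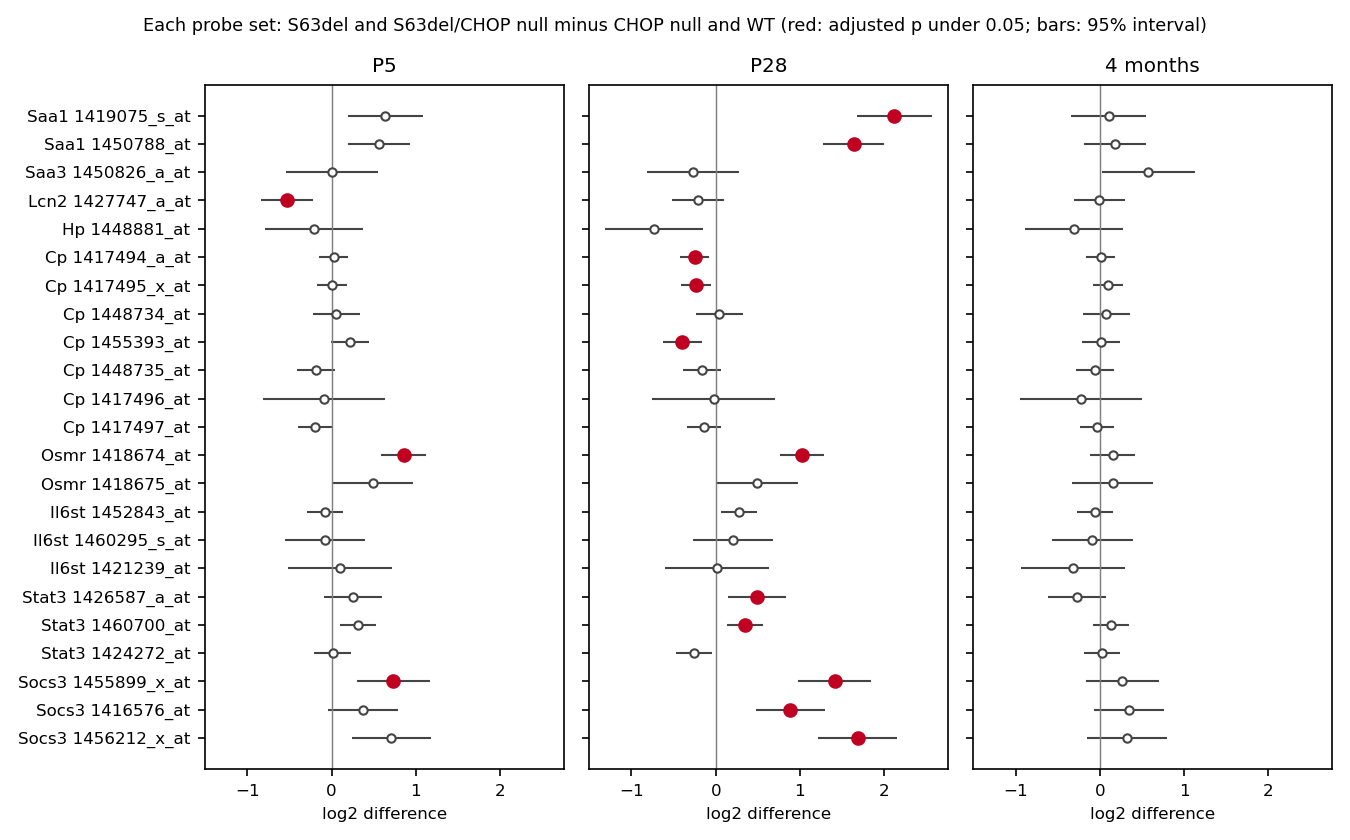
Log2 difference between both S63del genotypes and both others for each of the 23 probe sets at P5, P28 and 4 months, grouped by gene; bars are 95% intervals, red points passed the test over all probe sets and open points did not. All probe sets of Saa1 and Socs3 are red at P28, 3 of 7 of Cp lie red to the left of 0, and no point is red at 4 months.

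The size of the difference changed with age. The difference between both S63del genotypes and both others grew from P5 to P28 by 1.48 ± 0.30 for Saa1 (adjusted p = 0.00935), the 1 member called where 3.1% of all genes were. From P28 to 4 months it fell by 2.01 for Saa1 (SE 0.30; adjusted p = 0.00142), by 0.87 for Osmr (SE 0.17; adjusted p = 0.0126) and by 1.14 for Socs3 (SE 0.29; adjusted p = 0.0393), 3 of 9 genes where 3.15% of all genes passed. The Saa1 values of the S63del genotypes were low again at 4 months, whereas for Osmr and Socs3 the CHOP null and WT nerves had higher values than at P28. In S63del against WT alone, none of the 9 passed either step, with 0.476% and 0.169% of all genes called, and Saa1 had an adjusted p of 0.064 at the second. The call of Socs3 at the second step was kept in 9 of 24 alternatives, and without CHOP null P28 replicate 1 the counts were 4 and 6 genes.

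Age in WT nerves accompanied large differences in several of the genes. The P28 arrays also differed as a whole, with medians of 6.84 to 6.87 and interquartile ranges of 2.90 to 3.52. These were 6.98 to 7.01 and 3.77 to 3.83 at P5, and 6.97 to 7.03 and 3.86 to 3.90 at 4 months. In this design the shift cannot be told apart from age. With quantile normalization, which removes it, the calls between ages given here were kept, except that of Il6st at 4 months against P28. At P28 against P5, 3 of 9 passed, all higher, where 59.5% of all genes passed. Hp had 9.52 and 10.53 at P28 and 5.70 and 6.25 at P5, a difference of 4.05 ± 0.39 (adjusted p = 3.28e-07). Cp had 11.87 and 12.08 at P28 and 9.73 and 9.60 at P5, a difference of 2.31 ± 0.11 (adjusted p = 2.89e-10), and Osmr was higher by 1.55 ± 0.17 (adjusted p = 2.00e-06). At 4 months against P28, where 57% of all genes passed, 4 were higher and 1 lower. The values of Socs3 were 8.58 and 8.97 at 4 months and 7.43 and 7.83 at P28, a difference of 1.15 ± 0.29 (adjusted p = 0.00312). Osmr was higher by 1.27 ± 0.17 (adjusted p = 2.76e-05), Lcn2 by 1.02 ± 0.20 (adjusted p = 0.000562) and Il6st by 0.43 ± 0.14 (adjusted p = 0.0148), while Cp was lower at -0.37 ± 0.11 (adjusted p = 0.0111). The Cp call was lost without WT P28 replicate 2 or WT 4 months replicate 1 and with the mean of its probe sets, at -0.06 (adjusted p = 0.70), and a pair of its probe sets were called higher, by 0.42 and 0.64. Il6st rests on the probe set chosen: with the mean of its 3 probe sets the difference was -0.31. Over the whole span from P5 to 4 months, 6 of 9 genes were higher, where 36.8% of all genes passed. By 4 months WT nerves had reached the Osmr level of S63del nerves at P28, at 9.74 and 9.33 against 9.0 and 9.01.

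Markers of other cell types, and RNA quality, moved beside this change with age. The log2 of the summed level of the 8 measured adipocyte markers was 12.49 to 13.34 in both S63del genotypes and 13.10 to 13.64 in CHOP null and WT at P5. At P28 it was 14.64 to 15.01 in both S63del genotypes and 14.97 to 15.15 in CHOP null and WT, and at 4 months 15.24 to 15.48 in both S63del genotypes and 15.06 to 15.44 in CHOP null and WT. All 8 were higher in WT at P28 than at P5, and at P28 their sum was lower in 2 of the 4 arrays with S63del than in any array without it. Their mean log2 level at P28 was 10.25 to 10.75 in both S63del genotypes and 10.84 to 11.09 in CHOP null and WT, without overlap. Fat cells are known to make haptoglobin; the part of fat beside the nerve in the values of Hp, Cp and Lcn2 was not tested. In WT, 10 of 10 skeletal muscle markers were lower at 4 months than at P28, with a median difference of -4.55. The 3′ over 5′ signal of Actb was 0.33 to 0.44 at P5, 0.59 to 1.12 at P28 and 0.74 to 1.82 at 4 months. The part of either in the age differences was not tested. At P28 the 10 muscle markers summed to 11.56 to 15.29 in both S63del genotypes and 13.46 to 15.68 in CHOP null and WT. S63del replicate 1 and S63del/CHOP null replicate 2 lay below every array without S63del. The part of muscle in the P28 differences between genotypes was not tested. The log2 of the summed level of the 9 measured hepatocyte markers was 8.70 to 8.94 at P28 in both S63del genotypes and 8.88 to 9.40 in CHOP null and WT. The medians of the single hepatocyte markers over all arrays were as low as 3.37 and at most 6.08. Their part in the Saa1 values was not tested. The 10 macrophage markers summed to 13.55 to 13.71 in both S63del genotypes and 13.44 to 13.70 in CHOP null and WT at P28. Their mean log2 level was 9.36 to 9.60 in both S63del genotypes and 9.24 to 9.37 in CHOP null and WT. Of these markers, 3 of 10 were called higher and none lower. Of all genes, 16.1% were called higher and 11.9% lower at P28 with both S63del genotypes against both others. The 6 measured Schwann cell markers summed to 15.54 to 15.58 in both S63del genotypes and 15.55 to 15.63 in CHOP null and WT at P28. Their mean log2 level there was 12.22 to 12.40 in both S63del genotypes and 12.16 to 12.27 in CHOP null and WT. The sums are log2 of added linear levels, so the brightest markers weigh most in them.

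At P5, where Osmr, Socs3 and Lcn2 were called, markers of several cell types were lower with S63del without overlap. The Schwann cell markers summed to 15.11 to 15.20 in both S63del genotypes and 15.48 to 15.49 in CHOP null and WT, with 4 of 6 called lower. Of all genes, 3.1% were called lower at P5 with both S63del genotypes against both others. The 10 fibroblast and perineurium markers summed to 15.41 to 15.56 in both S63del genotypes and 15.67 to 15.75 in CHOP null and WT, and the 10 endothelial markers to 11.13 to 11.28 in both S63del genotypes and 11.39 to 11.64 in CHOP null and WT. The 5 measured erythroid markers summed to 9.21 to 9.69 in both S63del genotypes and 10.05 to 11.04 in CHOP null and WT. The part of these in the differences of the 9 genes at P5 was not tested.

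**Figure D4:**
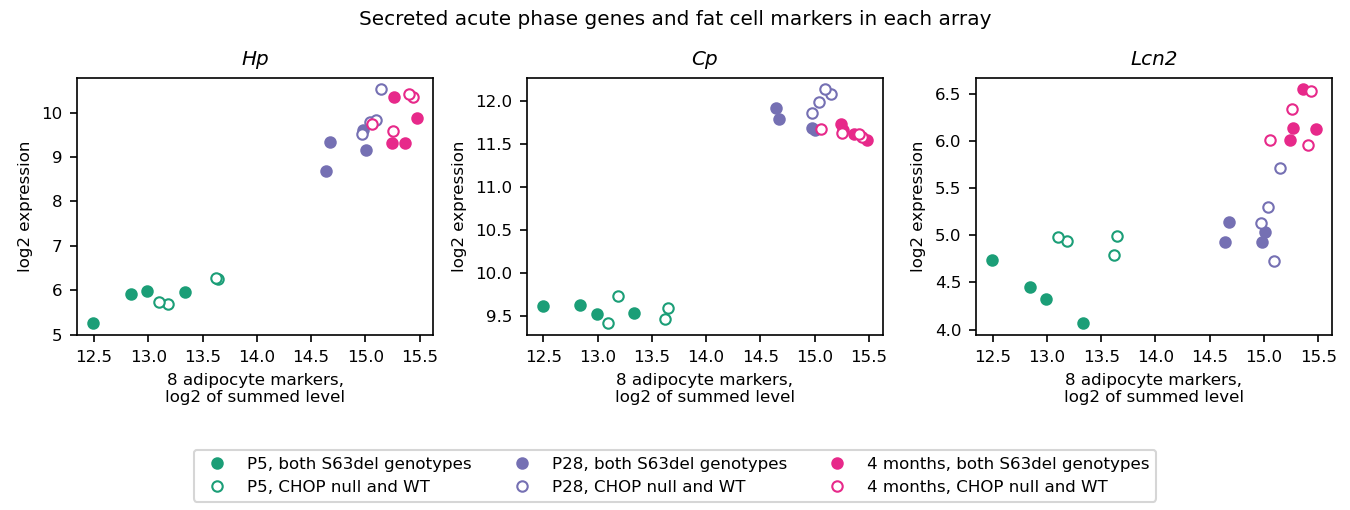
Log2 value of Hp, Cp and Lcn2 on each of the 24 arrays (vertical axes) against the log2 of the summed level of 8 adipocyte markers (horizontal axis), with age by colour, filled points for both S63del genotypes and open points for CHOP null and WT. The P5 arrays, at 12.49 to 13.64 on the horizontal axis, hold the lowest Hp and Cp values, and the later ages lie together at 14.64 and above.

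The rest of the pathway was described with lists of related genes. These lists, like the 9 genes, were drawn up with earlier results of these data known. Their counts and medians are therefore a description and not independent support. Of 22 brakes and targets of STAT3, all measured, 5 were higher in S63del than in WT at P5 and 6 at P28, none was lower, and none passed at 4 months. Of all genes, 1.15% were higher in this comparison at P5 and 3.01% at P28. The median log2 difference of the list was 0.14 at P5 and 0.30 at P28, beside -0.02 and 0.01 over all genes. At P28 these were Timp1, an inhibitor of matrix metalloproteinases, by 2.14 ± 0.32 (adjusted p = 0.00113), Tnfrsf12a, the receptor for the cytokine TWEAK, by 1.62 (adjusted p = 0.000109), Gfap, an intermediate filament of glia, by 1.43 (adjusted p = 0.00134), Fos, a subunit of AP-1, by 1.33 (adjusted p = 0.0014), Cebpd, a C/EBP factor of the acute phase, by 0.94 (adjusted p = 0.0028) and Bcl3, a modulator of NF-kB, by 0.64 (adjusted p = 0.0471). Timp1 had 9.32 and 8.88 in S63del/CHOP null nerves, 9.34 and 9.20 in S63del nerves, 7.15 and 7.61 in CHOP null nerves and 7.08 and 7.16 in WT nerves at P28. Tnfrsf12a was already apart at P5, with 10.65 and 10.53 in S63del/CHOP null nerves, 10.65 and 10.55 in S63del nerves, 8.56 and 8.61 in CHOP null nerves and 8.68 and 8.46 in WT nerves. Its difference between S63del and WT at P5 was 2.03 ± 0.18 (adjusted p = 5.01e-06), beside Timp1 at 1.5 ± 0.32 (adjusted p = 0.0155), the chemokine gene Ccl2 at 1.13 (adjusted p = 0.0436), Fos at 1.09 (adjusted p = 0.0061) and Cebpd at 0.84 (adjusted p = 0.0061). Between S63del/CHOP null and CHOP null 5 were higher at P5 and 8 at P28, where 0.904% and 9.77% of all genes were higher. Those at P28 were the genes named above other than Bcl3, with Junb, Cebpb and Icam1 added, by 0.96, 0.74 and 0.68. Many of these genes are known to respond to other signals too.

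**Figure D5:**
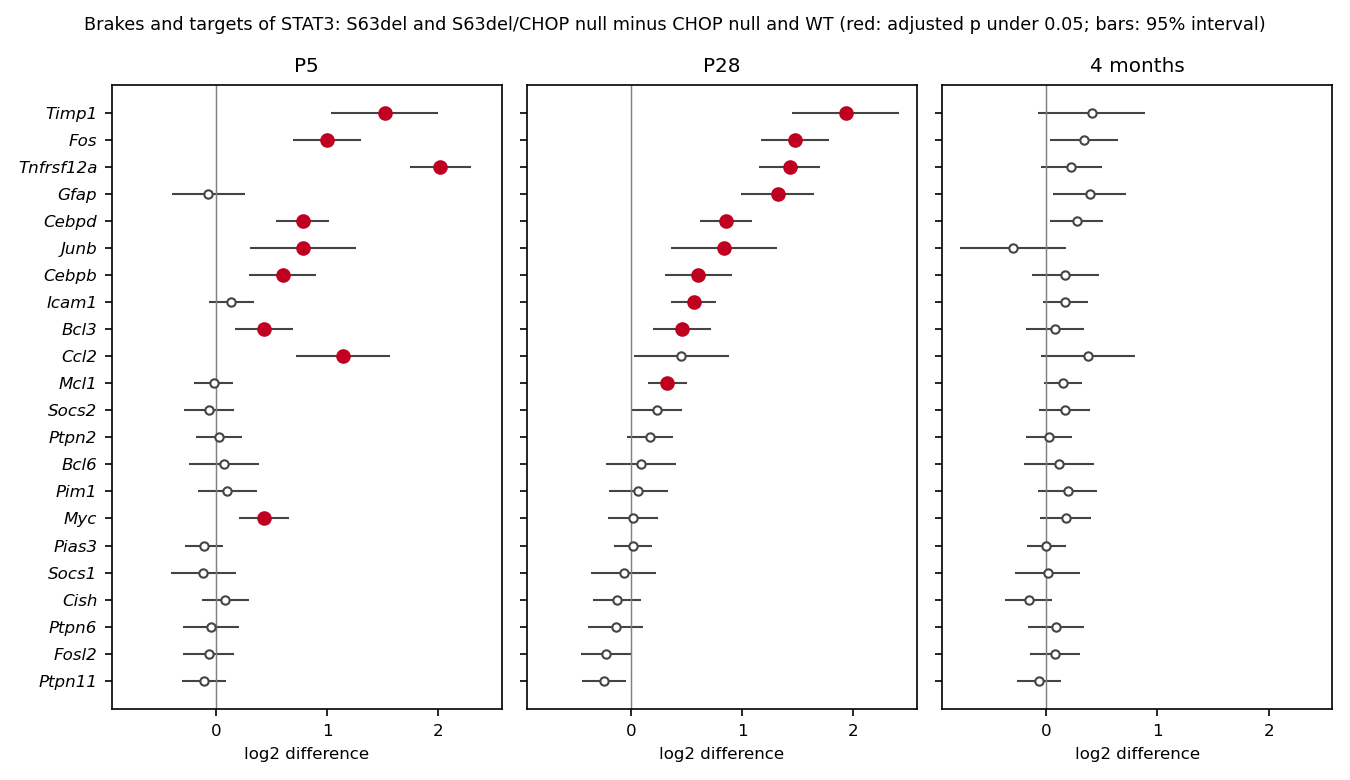
Log2 difference between both S63del genotypes and both others for the 22 brakes and targets of STAT3 at P5, P28 and 4 months, 1 row a gene with 95% intervals; red points passed the test over all genes and open points did not. Red points number 9 at P5, 10 at P28 and 0 at 4 months, all to the right of 0, where 2.87%, 16.1% and 0% of all genes were called higher. The list was drawn up with earlier results of these data known.

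The calls of ligand and receptor genes are to be read against the share of all genes called. That was 2.4% between S63del and WT at P5 and 4.62% at P28. Between S63del/CHOP null and CHOP null at P28 it was 17.8%. Of 11 ligand genes 7 were measured; Clcf1, a cytokine that acts through the CNTF receptor, was higher in S63del than in WT at P5 by 0.88 ± 0.21 (adjusted p = 0.0289), and Ctf1, cardiotrophin, was lower at P28 at -0.75 ± 0.19 (adjusted p = 0.0358). Ctf1 was lower in S63del/CHOP null than in CHOP null at P28 too, at -0.88 (adjusted p = 0.00875). Of 15 receptor and kinase genes 13 were measured, and Jak2, a kinase bound to these receptors, was the 1 called between S63del and WT at P28, higher by 0.43 ± 0.11 (adjusted p = 0.0406). Between S63del/CHOP null and CHOP null at P28, Jak2 was higher by 0.44 and Tnfrsf1a, a receptor for TNF, by 0.33, and Il6ra, the private chain for IL6, was lower at -0.60.

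Other acute phase genes went both ways. Of 28 on the list 23 were measured, and at P28 S63del exceeded WT in Saa2, given above, and by 0.57 in Steap4, a metal reductase, while A2m, alpha-2-macroglobulin, a protease inhibitor, was lower at -1.33 ± 0.18 (adjusted p = 0.00041). A2m had 7.22 and 6.84 in S63del/CHOP null nerves, 7.23 and 6.89 in S63del nerves, 8.62 and 8.21 in CHOP null nerves and 8.31 and 8.47 in WT nerves, without overlap between the groups with and without S63del. At P5 Serpina3n, a protease inhibitor, was higher by 1.07 ± 0.26 (adjusted p = 0.0372). Between S63del/CHOP null and CHOP null at P28, Lbp, which binds bacterial lipopolysaccharide, was higher by 0.61 and Steap4 by 0.64, and A2m at -1.38 and Fgg, a fibrinogen chain, at -0.87 were lower. Of all genes, 17.8% passed in that comparison. Between S63del and WT the share was 4.62% at P28 and 2.4% at P5. With both S63del genotypes against both others, 3 were higher at P5, 7 were higher and 3 lower at P28, and none passed at 4 months. Of all genes, 2.87% were higher in this comparison at P5, and 16.1% higher and 11.9% lower at P28.

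Across the 24 arrays, which share ages and genotypes, the genes with the most similar profile to each member were found by Pearson's r, as a description. Saa1 was most like Gria1 (r = 0.956), Osmr most like Anxa4 (r = 0.980), Socs3 most like Anxa1 (r = 0.957) and Stat3 most like Cygb (r = 0.937). Hp was most like Dgat2 (r = 0.983), Cp like Cd59a (r = 0.993), Lcn2 like Nfat5 (r = 0.963) and Il6st like Blcap (r = 0.951), while for Saa3 the highest was Alox15 (r = 0.785).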

How the data were processed

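Sciatic nerve RNA was labelled with biotin and hybridised to 24 Affymetrix arrays, per the labels' protocols. The authors deposited 1 log2 value for each of 22690 probe sets. The log2 scale was inferred from their range and from array medians of 6.84 to 7.03; the sources used here name neither their normalization nor the software. The 64 control, 691 several-symbol and 1555 unnamed probe sets were left out; 20351 of 20380 others matched the RefSeq gene table. For 4956 genes with several probe sets the brightest was used.

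Group means were fitted with limma 3.58.1 (statmod 1.5.0, R 4.3.3) over all 24 arrays, with 12 residual degrees of freedom and Benjamini-Hochberg adjustment over 12393 genes at 0.05. Each probe set was also tested. The fit was tested on simulated data. The number of arrays limits precision.

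The 9 genes and all lists were chosen with earlier results of these data known. Pathway genes were named if called in S63del against WT, S63del/CHOP null against S63del or S63del/CHOP null against CHOP null, at most the 8 largest at each age. Alternatives were another normalization, probe-set summaries, filters, weights, estimation, a replicate block, fewer arrays and each array left out. Some genes were not analysed here.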

Additional observations from a re-analysis of the deposited data

Results flagged for a closer look

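Differences between ages were tested for the 9 genes and their probe sets, in both S63del genotypes against both others unless stated, with limma's adjusted p. From P5 to P28 the difference grew by 1.48 for Saa1 (adjusted p = 0.00935) and by 1.07 for its probe set with the lower mean (adjusted p = 0.0261), and 1 probe set of Cp changed by -0.61 (adjusted p = 0.0407). From P28 to 4 months it changed by -2.01 for Saa1 (adjusted p = 0.00142), by -1.45 for that same probe set (adjusted p = 0.00478), by -0.87 for Osmr (adjusted p = 0.0126), by -1.14 for Socs3 (adjusted p = 0.0393) and by -1.36 for 1 of its probe sets (adjusted p = 0.0302). In S63del against WT alone, that probe set of Saa1 changed by -1.96 over that step (adjusted p = 0.0323). Groups of 2 arrays are too small for a check of single arrays against their group.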

How the results depend on the processing

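Counts are of the 9 genes. Over the alternatives, 424 counts stayed within 1.5 times the reported one and 65 did not; of changes in single genes 521 kept direction and call, 132 lost the call and 2 reversed. The reversed ones are Il6st in WT at 4 months, -0.31 against P28 and -0.67 against P5 with the mean of all probe sets. Cause was not tested in any of these.

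S63del against WT at P5 gave 2 (1 reported) with array weights, without the 2 doubtful arrays (CHOP null P28 replicate 2 and WT 4 months replicate 1) or on the 8 arrays of the age alone; at P28 1 (3 reported) on the 8 arrays. S63del/CHOP null at P5 gave 0 (1 reported), against CHOP null and against WT, with the mean of probe sets or the replicate block, and 2 with weights or 8 arrays; at P28 0 (4 reported) against CHOP null with weights and 1 (3 reported) against WT on 8 arrays. S63del against WT averaged over ages gave 2 (4 reported, with 6.89% of all genes called) without genes under the 40th percentile. The S63del effect at 4 months against P28 gave 1 (0 reported) with quantile normalization, the mean, trend and robust estimation, the replicate block or every probe set, and 2 without the doubtful arrays. Both S63del genotypes against both others gave 1 (3 reported) at P5 with quantile normalization, and 3 (6 reported) at P28 with the mean, weights or 8 arrays. The effect of both at P28 against P5 gave 0 (1 reported) with the filter or weights and 2 with every probe set; at 4 months against P28 1 (3 reported) with the mean and 0 with weights.

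Leaving out each array in turn gave, for S63del against WT, 0 to 2 at P5, 1 to 3 at P28, 0 to 1 at 4 months and 3 to 5 averaged; for S63del/CHOP null against CHOP null 0 to 0 at P5 and 3 to 5 at P28; against WT 0 to 0 at P5 and 1 to 3 at P28; against S63del 0 to 1 at 4 months; for CHOP null against WT 0 to 3 at P28, 0 to 1 at 4 months and 0 to 1 averaged; for the S63del effect between ages 0 to 1 at each step; for both against both others 1 to 2 at P5, 3 to 6 at P28 and 0 to 1 at 4 months; for its change 1 to 4 and 2 to 6; for WT ages 3 to 4, 4 to 5 and 5 to 7.

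Replicate numbers were shared between groups but gave correlations of deviations of -0.477 to 0.349 over 18 pairs, so they were not taken as pairs; the replicate block changed the counts given above and no other by over 1.5 times. With 2 arrays a group, signal below the array medians limits Saa1, Saa3 and Lcn2 most.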
